A study of Mus musculus with 8 samples.

Results

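The miR-34 family is a set of microRNAs (miRNAs) known as direct targets of the tumour suppressor p53. Its members here were the 6 mature mouse arms mmu-miR-34a-5p, mmu-miR-34a-3p, mmu-miR-34b-5p, mmu-miR-34b-3p, mmu-miR-34c-5p and mmu-miR-34c-3p, taken by name from the miRNA probes of the array and written without the species prefix from here on. They are 6 of the 1881 mouse miRNAs on the array, and 3 of them were among the 379 miRNAs bright enough to be tested. Kidney miRNAs of mice with ischemia-reperfusion injury (IRI), a model of acute kidney injury, were measured against those of sham-operated mice on single-colour arrays, 4 arrays per group. The animals were male C57BL/6 mice of 9 weeks. IRI animals lost the right kidney and had the left kidney clamped for 25 or 45 min, with collection 12 or 24 h later. Sham animals received the midline incision alone and so kept both kidneys, which means that nephrectomy and injury cannot be told apart. Clamp time and collection time are not assigned to single IRI samples by the labels, and the 4 IRI arrays, replicates 1, 2, 3 and 18, form one group. The sham arrays are replicates 1, 2, 3 and 6. The labels name no separate animal for each sample, so the p-values below measure the spread between these samples, which may be technical.

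A miRNA is cut from a hairpin precursor, and either arm of the hairpin, 5p or 3p, can be loaded into a silencing complex. It then recognises messenger RNAs mainly through its seed, bases 2 to 8. After DNA damage or other stress p53 binds the promoters of the miR-34 genes, and the 5p arms in turn lower proteins that drive the cell cycle and survival, so the family is known as a link between p53 and growth arrest, senescence or cell death. miR-34a is made in many tissues from a gene of its own. miR-34b and miR-34c share one primary transcript and are best known from multiciliated epithelium and germ cells, together with the related miR-449 family. The arrays carry no probe for p53 or for any messenger RNA, so p53 activity was not measured here.

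The sequences below are shown because the family is defined by its seed. Mature sequences of 5 of the 6 members were matched by name in the RefSeq table (build GRCm38.p6), and they are printed 5′ to 3′ with the seed in capitals. The mature miR-34c-5p was not matched and is named only. The first group shares the seed of miR-34a-5p, including the related miR-449a-5p and miR-449c-5p.
miR-34a-5p: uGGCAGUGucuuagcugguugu
miR-34b-5p: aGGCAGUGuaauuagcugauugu
miR-449a-5p: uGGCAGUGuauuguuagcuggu
miR-449c-5p: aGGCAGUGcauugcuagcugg
The 3p arms carry other seeds, one of them common to miR-34b-3p and miR-34c-3p.
miR-34a-3p: aAUCAGCAaguauacugcccu
miR-34b-3p: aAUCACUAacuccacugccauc
miR-34c-3p: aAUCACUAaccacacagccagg
Beyond the seed the 5p arms are not identical. Aligned from their first base without gaps, miR-34a-5p and miR-34b-5p have the same base at 11 of 22 positions. As miR-34b-5p has 23 bases and miR-34a-5p 22, an alignment with a gap could match more, so that count does not measure how alike they are. The hairpin of miR-34c is shown in place of its 5p arm, with the 20 bases that its longer array probe covers in capitals.
Mir34c hairpin: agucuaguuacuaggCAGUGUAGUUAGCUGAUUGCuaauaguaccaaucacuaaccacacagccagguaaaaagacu

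In GRCm38.p6 the Mir34a hairpin lies at chr4:150068454-150068555 on the plus strand, outside every other gene span of the RefSeq table. The Mir34b hairpin at chr9:51103562-51103645 and the Mir34c hairpin at chr9:51103034-51103110 lie on the minus strand with 451 bases between them. Both fall within the spans of the protein-coding genes Btg4 and Hoatz. That table lists gene spans, and exon or intron was not assigned. Each member had 2 probes of different length, with 15 spots per probe. The longer probes of miR-34b-5p and miR-34c-5p are printed next because their targets are close to each other. Capitals mark the 2 of 20 aligned bases at which they differ.
miR-34b-5p probe: AcaatcagctaaTtacactgcc
miR-34c-5p probe: GcaatcagctaaCtacactg
Counted without gaps, the longer miR-34a-5p probe had 9 mismatches at its best place on the Mir34b hairpin and 10 on the Mir34c hairpin. Pairing with an unpaired base was not counted and could leave fewer, so these counts do not show how distinct that probe is. Whether RNA of miR-34b-5p adds signal to the miR-34c-5p probes, or the reverse, was not tested.

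Between 327 and 379 miRNAs were detected on sham arrays and between 393 and 447 on IRI arrays, by the scanner software's detection flag. All 8 lay on 1 slide and were read in 1 scan, with each of the 4 slide columns holding 1 array of either group. Sham arrays filled slide row 1 and IRI arrays slide row 2, so row and group cannot be told apart. Signals were divided by the 75th percentile of the 317 miRNAs detected on all 8 arrays, and these scaled signals are used unless stated. Among the 379 tested miRNAs, 185 passed an adjusted p of 0.05 (limma, Benjamini-Hochberg), which is 48.8%, with 12.1% higher and 36.7% lower in IRI. The 4 marker miRNAs of kidney tubule were detected on every array and summed to scaled signals between 13970 and 16410 on sham arrays and between 10070 and 11520 on IRI arrays. All 4 were called lower, and 0 were without scaling or with the spike-ins (limma; 2 lower at an unadjusted p under 0.05 in either case). Red blood cell markers ran the other way, with sums between 41.1 and 901.9 on sham arrays and between 2940 and 4087 on IRI arrays. In whole tissue, fewer cells of a type and less RNA per cell cannot be told apart.

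miR-34a-5p was the one member far above background, and it fell in IRI relative to the rest of the array. miR-34b-5p, detected on every array, did not pass the test. miR-34c-5p was detected on 4 of 4 IRI arrays and 0 of 4 sham arrays and was called higher, at a signal too near background to give a fold. The 3 3p arms were detected on no array. So 2 of the 3 tested members were called, 1 in each direction, beside 48.8% of all tested miRNAs. miR-34c-5p passed the filter for testing through the IRI arrays alone, and 3 of its 4 sham signals were set to a common minimum, the floor. With 3 members tested, that share is not read as particular to the family.

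miR-34a-5p is the arm through which p53 is best known to repress cell-cycle genes. Its scaled signals were 829, 899.8, 809 and 892 on sham replicates 1, 2, 3 and 6. On IRI replicates 1, 2, 3 and 18 they were 661, 517, 509.9 and 668. The groups did not overlap, with IRI replicates 2 and 3 the lowest of all, and 35.9% of tested miRNAs were likewise wholly lower in IRI. Sham arrays averaged 857.5 ± 45.3 and IRI arrays 589 ± 87.3 (SD, n = 4 each). limma gave a log2 change of -0.55 ± 0.11 (SE), or 0.682 times the sham level, with an adjusted p of 0.00477. The 95% interval of the log2 change ran from -0.81 to -0.30. Its 2 probes gave the same change within error, -0.56 for the probe of 19 bases and -0.55 for that of 20 bases (adjusted p = 0.00499 and 0.00487, limma). All 115 sham spots and all 115 IRI spots used were well above background. Within slide columns 1 to 4 the log2 difference between the IRI and the sham array was -0.33, -0.80, -0.67 and -0.42, lower in 4 of 4 columns (adjusted p = 0.0146 with the column as a block, limma).

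The fall of miR-34a-5p was relative to an array whose signal was higher in IRI. Without scaling its signals were 844, 884, 669 and 709 on sham arrays and 785, 648.5, 525 and 663 on IRI arrays, so that the groups overlapped. The log2 change was then -0.25 (adjusted p = 0.271, limma), and scaling to the 2 RNAs spiked in before labelling gave -0.23 (adjusted p = 0.281, limma). Without scaling 14.2% of tested miRNAs were called, 14.0% higher and 0.264% lower, and with the spike-ins 19.5%, 19.0% higher and 0.528% lower. The excess of lower calls under the main scaling thus turned to an excess of higher calls under both of these. It remained with quantile normalization, at 47 higher and 128 lower, and with the median over miRNAs detected on all arrays, at 58 and 137. The percentile over all mouse miRNAs gave 43 higher and 144 lower. The median change over the 379 tested miRNAs was -0.11 in the main setting, against 0.17 on unscaled signals and 0.19 on spike-in scaled ones. miR-34a-5p lay below that median under each. Apart from the floor, these settings differ only by a factor per array, so its distance from the median is nearly fixed across them. Its call was lost without scaling and with the spike-ins. The call held with quantile normalization, the median scaling and the percentile over all mouse miRNAs (adjusted p = 0.0229, 0.00263 and 0.00325, limma). That last percentile lies near the limit of detection, since at most 447 of the 1881 miRNAs were detected on an array.

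**Figure D1:**
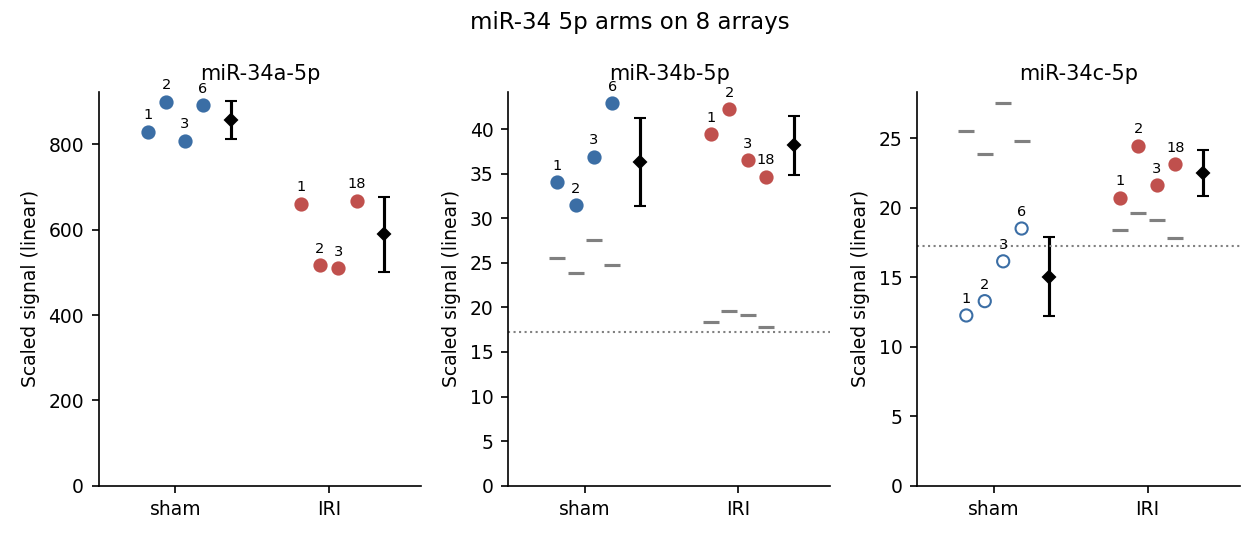
Scaled signal (linear, y axis) of miR-34a-5p, miR-34b-5p and miR-34c-5p on the 4 sham (blue) and 4 IRI (red) arrays, numbered by replicate; filled points are detected, open points not detected, and diamonds give the mean with SD. In the 2 right panels grey ticks mark the lowest signal of any miRNA well above background on that array and the dotted line marks the floor of 17.3; miR-34a-5p runs from 809 to 899.8 in sham and from 509.9 to 668 in IRI, miR-34b-5p overlaps, and miR-34c-5p lies below the ticks on all sham arrays and above them on all IRI arrays.

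miR-34b-5p shares its seed with miR-34a-5p and its primary transcript with miR-34c. Its scaled signals were 34.1, 31.5, 36.9 and 42.9 on sham replicates 1, 2, 3 and 6, and 39.45, 42.2, 36.5 and 34.7 on IRI replicates 1, 2, 3 and 18. The highest value was on a sham array and the groups overlapped throughout. Sham arrays averaged 36.3 ± 4.92 and IRI arrays 38.2 ± 3.31 (SD, n = 4 each), and the log2 change was 0.08 ± 0.11 by limma (SE; adjusted p = 0.559). The 95% interval ran from -0.18 to 0.33 on the log2 scale, so modest changes in either direction lie within it. The sign turned with 3 other settings, to -0.03 with the percentile over all mouse miRNAs, to -0.02 with quantile normalization and to -0.15 with normexp background correction. Normexp adds an offset of 50 to every spot, above the highest probe mean of miR-34b-5p, 32.8, so that last sign is not read. Without scaling the value was 0.38 (adjusted p = 0.112, limma). Within slide columns the log2 difference was above 0 in columns 1 and 2 (0.21 and 0.42) and below 0 in columns 3 and 4 (-0.015 and -0.31).

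The signal of miR-34b-5p lay low but above background. Its probe of 22 bases had 46 of 59 sham spots and 58 of 59 IRI spots well above background, and the probe of 21 bases had 2 of 59 and 29 of 59. The scanner software's total signal was 5.13 to 6.04 times its error on sham and 6.66 to 8.54 times on IRI arrays, where for miR-34a-5p that ratio was 13.8 to 13.9 on all 8. Unscaled, sham arrays averaged 32.5 ± 2.13 and IRI arrays 43 ± 8.49 (SD, n = 4 each). The difference of 10.4 had p = 0.0571 in a two-sided exact permutation test over arrays, and 0.0857 after adjustment over the 6 such tests run on the 5p arms.

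miR-34c-5p is the arm whose detection differed between the groups. Its scaled signals were 12.2, 13.3, 16.1 and 18.5 on sham replicates 1, 2, 3 and 6, and 20.7, 24.5, 21.6 and 23.1 on IRI replicates 1, 2, 3 and 18. Every IRI array was above every sham array, as for 10.6% of tested miRNAs. Sham arrays averaged 15 ± 2.84 and IRI arrays 22.5 ± 1.65 (SD, n = 4 each). The difference of 7.44 had p = 0.0286 in the two-sided exact permutation test, which is the minimum for 4 arrays against 4, and 0.0571 after adjustment over the 6 tests. limma called it higher with a fitted log2 change of 0.35 ± 0.07 (SE; adjusted p = 0.00435). That value is not a measured size, since 3 of the 4 sham signals were raised to the floor of 17.3. The floor also narrows the sham spread behind the SE and the adjusted p. miR-34c-5p passed the filter for testing through the IRI arrays alone. Against the lowest signal of miRNAs well above background on each sham array, 23.9 to 27.6, the IRI mean gave no bound above 1-fold, so no fold is stated. Within slide columns 1 to 4 the floored log2 difference was 0.26, 0.50, 0.33 and 0.32 (adjusted p = 0.0179 with the column as a block, limma). In columns 1 to 3 the sham value was the floor itself, so no difference below 0 was possible there. The common sign and that adjusted p therefore add no support.

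Without scaling the separation was wider. The signals were 12.5, 13.05, 13.3 and 14.7 on sham arrays and 24.6, 30.7, 22.3 and 22.95 on IRI arrays, again without overlap, as for 21.9% of tested miRNAs. The means differed by 11.7, with the same exact permutation p of 0.0286 and adjusted p of 0.0571. On sham arrays the software's total signal for miR-34c-5p stood at its fill value of 0.1 on all 4, and on IRI arrays it was 4.09 to 5.1 times its error. In sham kidney miR-34c-5p was therefore not detectable with these arrays, which does not show that it was absent.

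How near miR-34c-5p lay to background can be read from its spots. The 95th percentile of negative-control spots was 6.83 to 9.03 across the arrays, and their mean 2.23 to 4.15. The probe of 20 bases averaged 9.62 ± 1.22 on sham arrays and 16.3 ± 2.78 on IRI arrays (SD, n = 4, unscaled), with 40 of 60 and 58 of 59 spots above that percentile. The probe of 19 bases averaged 3.76 ± 0.606 and 8.87 ± 1.11, with 3 of 59 and 29 of 60 spots above it. Only 1 of 119 sham spots and 29 of 119 IRI spots were well above background by the scanner software's flag. Both probes were thus higher on IRI arrays, but after scaling the longer probe overlapped between groups, from 8.58 to 13.9 in sham and from 13 to 16.3 in IRI, while the shorter did not, at 3.66 to 4.65 and 7.62 to 8.21. With either probe alone in the fit the call of miR-34c-5p ended (adjusted p = 0.0665 for the longer and 1.0 for the shorter, which lay at its floor on all 8 arrays; limma).

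The call of miR-34c-5p was also lost with normexp background correction, at a log2 change of -0.13 (adjusted p = 0.229, limma). That setting adds an offset of 50 to every spot before scaling, and the probe means of miR-34c-5p were only 3.1 to 20.4. Under it the 1403 miRNAs detected on no array had a median change of -0.24. The offset and the scaling after it thus largely set the value of so dim a miRNA, and its sign is not read. The call held without scaling (0.45, adjusted p = 0.0339, limma) and with the spike-ins (0.47, adjusted p = 0.0262, limma), and it ended with the percentile taken over all mouse miRNAs (0.35, adjusted p = 0.0843, limma).

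**Figure D2:**
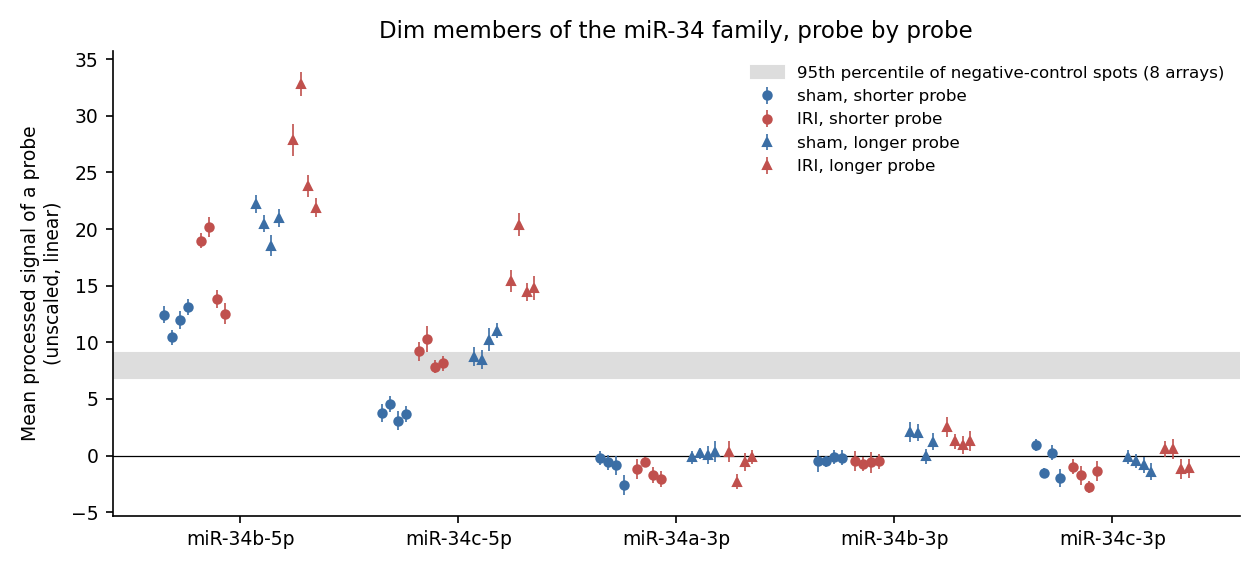
Mean processed signal of each probe (unscaled, linear, y axis) for the 5 dim members on 4 sham (blue) and 4 IRI (red) arrays, circles for the shorter and triangles for the longer probe, with the SE over up to 15 spots; the grey band spans the 95th percentile of negative-control spots, 6.83 to 9.03. The miR-34b-5p probes lie above the band, on sham arrays the longer miR-34c-5p probe lies in or just above it and the shorter below it, at 3.1 to 4.57, and all 3p probes lie between -2.78 and 2.53.

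The 3p arms, the strands of the precursors that are less often retained, were not detected on any of the 8 arrays. Their summed signals over 2 probes ran from -2.88 to -0.384 for miR-34a-3p, from -0.183 to 2.09 for miR-34b-3p and from -3.95 to 0.822 for miR-34c-3p, without scaling. Spots above the 95th percentile of negative controls numbered 0 of 236 for miR-34a-3p, 3 of 232 for miR-34b-3p and 0 of 236 for miR-34c-3p. A set of spots equal to the negative controls would have about 5% above that percentile. The mean of negative-control spots was 2.23 to 4.15 across the arrays, and every 3p probe mean lay below that of its array. The percentile is thus a high mark for these probes. No fold or test is given for these arms. Their probes were also short, 13 to 17 bases, beside 19 to 22 bases for the 5p arms.

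The miR-449 miRNAs, which share the seed and mark multiciliated cells, were likewise not above background. miR-449a-5p, miR-449b and miR-449c-5p were detected on 0 of 8 arrays, and 0 of their spots exceeded the 95th percentile of negative controls in either group. Their summed scaled signal ran from -28.8 to -12 on sham arrays and from -17.4 to -10.6 on IRI arrays. The probes of miR-449b had 15 to 18 bases and those of miR-449c-5p 13 to 16, beside 19 and 20 for miR-449a-5p. These miRNAs were thus not above background on the arrays on which miR-34c-5p was detected. Whether multiciliated cells contributed to the miR-34c-5p signal was not tested.

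Whether the members changed unequally was asked within each array. The scaling between arrays drops out of a ratio where both arms lie above the floor, as miR-34a-5p and miR-34b-5p do on all 8, and stays in it where miR-34c-5p was raised to the floor, as on 3 sham arrays. The log2 ratio of miR-34b-5p to miR-34a-5p was -4.61, -4.84, -4.45 and -4.38 on sham replicates 1, 2, 3 and 6, and -4.07, -3.61, -3.80 and -4.27 on IRI replicates 1, 2, 3 and 18. Every IRI ratio was above every sham ratio. The mean rose by 0.63, from -4.57 ± 0.20 to -3.94 ± 0.29 (SD, n = 4 each). In the two-sided exact permutation test p was 0.0286, the minimum possible, and 0.0429 after adjustment over the 3 pairs of arms. The level of such a ratio also holds the brightness of 2 different probe sets, so only its difference between groups is read. That difference was 0.30 with normexp background correction (adjusted p = 0.129, exact permutation test), whose offset of 50 per spot damps the change of a dim arm.

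The ratio of miR-34c-5p to miR-34a-5p moved the same way. With dim values raised to the floor it averaged -5.61 ± 0.07 on sham and -4.70 ± 0.27 on IRI arrays (SD, n = 4 each). On sham arrays with miR-34c-5p at the floor only miR-34a-5p varies in this ratio, so the sham SD understates its spread. The groups did not overlap and differed by 0.91 (two-sided exact permutation p = 0.0286, adjusted p = 0.0429). Without the floor, a setting chosen after seeing the data, the ratios were -6.08, -6.08, -5.65 and -5.59 on sham arrays and -4.997, -4.40, -4.56 and -4.85 on IRI arrays, a difference of 1.15. As miR-34c-5p was undetected in sham, neither difference is a measured size. With normexp background correction, which damps the dim arm in the same way, it was 0.31 (adjusted p = 0.129, exact permutation test).

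Between the 2 arms of the shared transcript the ratio of miR-34c-5p to miR-34b-5p differed by 0.28, from -1.04 ± 0.15 on sham to -0.76 ± 0.14 on IRI arrays (SD, n = 4 each). The groups overlapped (two-sided exact permutation p = 0.0571, adjusted p = 0.0571). It passed the threshold with 0.5 times the floor or none (0.52, adjusted p = 0.0286 over the 3 pairs, exact permutation test) and turned to -0.04 with 2 times the floor. The call on these 2 arms thus depended on the floor. That last floor puts miR-34c-5p at the floor on all 8 arrays, so ratios under it carry no information on miR-34c-5p. The ratio of miR-34c-5p to miR-34a-5p passed the threshold with the main floor, with 0.5 times it and with none (adjusted p = 0.0429, 0.0286 and 0.0286, exact permutation test), and that of miR-34b-5p to miR-34a-5p also with 2 times the floor (0.59, adjusted p = 0.0429).

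**Figure D3:**
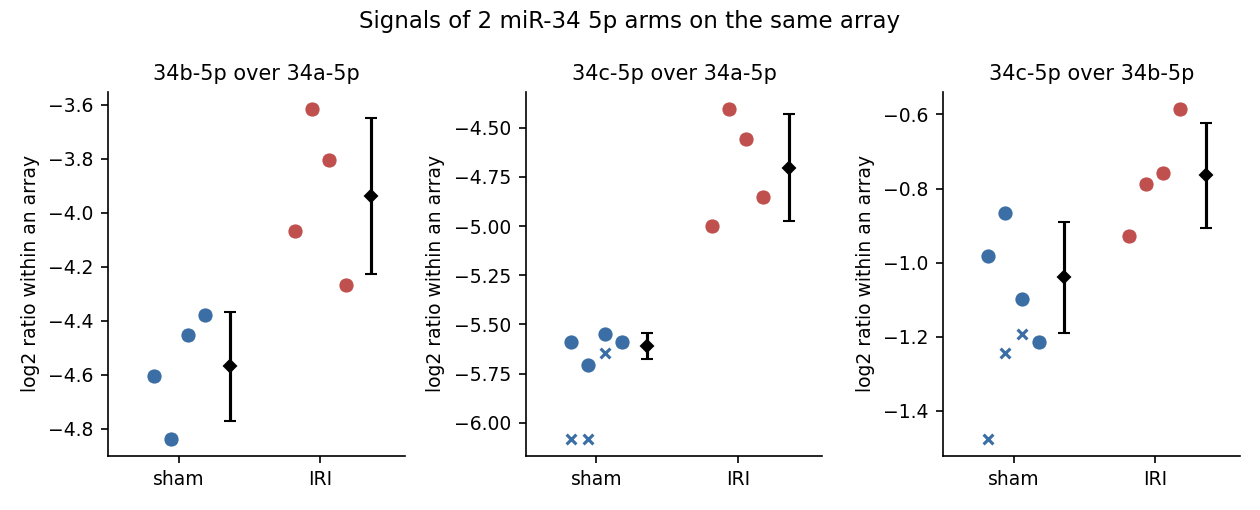
Log2 ratio of 2 arms on the same array (y axis) for the 3 pairs of 5p arms, 4 sham (blue) and 4 IRI (red) arrays; circles use floored values, crosses use values without the floor, and diamonds give the mean with SD of the floored values. Ratios to miR-34a-5p do not overlap between the groups and differ by 0.63 and 0.91, while the floored ratio of miR-34c-5p to miR-34b-5p overlaps and that without the floor does not, at -1.48 to -1.19 on sham and -0.93 to -0.58 on IRI arrays.

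Over the 8 arrays the patterns of the 2 members detected on all of them were unlike. Closeness was measured as the root mean square difference of log2 values centred on each miRNA's mean, over 8 arrays and among 316 other miRNAs detected on all of them. Nearest to miR-34a-5p were miR-128-3p (0.11), miR-200b-3p (0.11), miR-22-3p (0.13), miR-429-3p (0.13) and miR-6997-5p (0.13), against a median of 0.27 over all 316. All 5 were called lower in IRI, by -0.39 to -0.52 on the log2 scale (adjusted p from 0.00104 to 0.013, limma). miR-200b-3p and miR-429-3p come from one cluster known from epithelial cells. Nearest to miR-34b-5p were miR-148a-3p (0.11), miR-6908-5p (0.12), miR-877-3p (0.12), miR-27a-3p (0.14) and miR-125b-5p (0.14), of which only miR-877-3p was called (0.17, adjusted p = 0.0378, limma), with -0.15 under normexp background correction. miR-34b-5p stood at place 218 of 316 in its closeness to miR-34a-5p, at 0.38. The distances include the difference between groups, so the changes of the nearest miRNAs follow largely from how they were picked. They also describe arrays that share a slide and a scaling.

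Other miRNAs linked to p53 give the setting. Of 25 listed, 22 were tested. In IRI 12 of these fell and 3 rose, and 7 did not pass the test. Their median was -0.35 on the log2 scale, beside -0.11 over all 379. Under this scaling the shares called are to be read against 36.7% lower and 12.1% higher among all tested miRNAs. The 12 falls were all lost without scaling and with the spike-ins. Called lower were 12 with the median over miRNAs detected on all arrays, 13 with the percentile over all mouse miRNAs and 6 with quantile normalization. Without scaling 0 were called lower and 3 higher, with a median of -0.05 (11 above and 11 below 0; 3 lower at an unadjusted p under 0.05), and with the spike-ins 0 lower and 6 higher, with a median of -0.03 (limma; 3 lower at an unadjusted p under 0.05). The list was drawn up from general knowledge with earlier results of these data known.

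Among the 10 miRNAs known to be induced by p53, 9 were tested and 7 were lower, with a median of -0.51. miR-194-5p fell by 0.71 ± 0.09 and miR-192-5p by 0.69 ± 0.08 on the log2 scale (SE; adjusted p = 0.00104 and 0.000749, limma), both abundant in kidney tubule and also counted among its markers. miR-107-3p, which lies in a gene of coenzyme A synthesis, fell by 0.69 ± 0.08 and miR-22-3p by 0.51 ± 0.07 (SE). miR-200c-3p, at 0.10 ± 0.08, and its cluster partner miR-141-3p, at -0.06 ± 0.08 (SE), were not called and each changed sign under other scalings, and miR-215-5p was detected on no array. Without scaling 0 of the 9 were called by limma (adjusted p from 0.0883 to 0.558; 1 higher and 3 lower at an unadjusted p under 0.05), and their median was -0.20.

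The cluster from miR-17-5p to miR-92a-3p, which p53 is known to repress, lay on the other side. All 6 had a log2 change above 0 under the main scaling, and 3 of 6 were called higher, with a median of 0.22. miR-18a-5p rose by 0.99 ± 0.13, miR-17-5p by 0.40 ± 0.07 and miR-20a-5p by 0.30 ± 0.08 (SE; adjusted p = 0.00108, 0.00342 and 0.0158, limma), of which miR-17-5p turned to -0.06 with normexp background correction. Sham signals of miR-18a-5p, 22.9 to 27.9, lay near the lowest signals well above background on those arrays, 23.9 to 27.6. Its size is therefore uncertain. miR-19a-3p (0.15, turning to -0.02 with quantile normalization), miR-19b-3p (0.13) and miR-92a-3p (0.15) were not called. With spike-in scaling all 6 were called higher.

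The remaining roles were mixed. miR-143-3p, whose processing p53 is known to aid, fell by 0.43 ± 0.12 (SE; adjusted p = 0.0179, limma). Of the miRNAs that target p53 itself, miR-30d-5p fell by 0.30 ± 0.07 (SE; adjusted p = 0.0105, limma), a call lost without scaling, where it stood at 0.00. miR-125b-5p at -0.12 and miR-25-3p at -0.20 were not called, and stood at 0.18 and 0.11 without scaling. The 3 members of the miR-29 family, which target inhibitors of p53, all fell under the main scaling. The sizes on the log2 scale were -0.57 ± 0.11 for miR-29c-3p, -0.49 ± 0.13 for miR-29b-3p and -0.40 ± 0.13 for miR-29a-3p (SE), the last turning to 0.05 with quantile normalization. Without scaling, limma called 0 of these 7 (0 at an unadjusted p under 0.05).

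**Figure D4:**
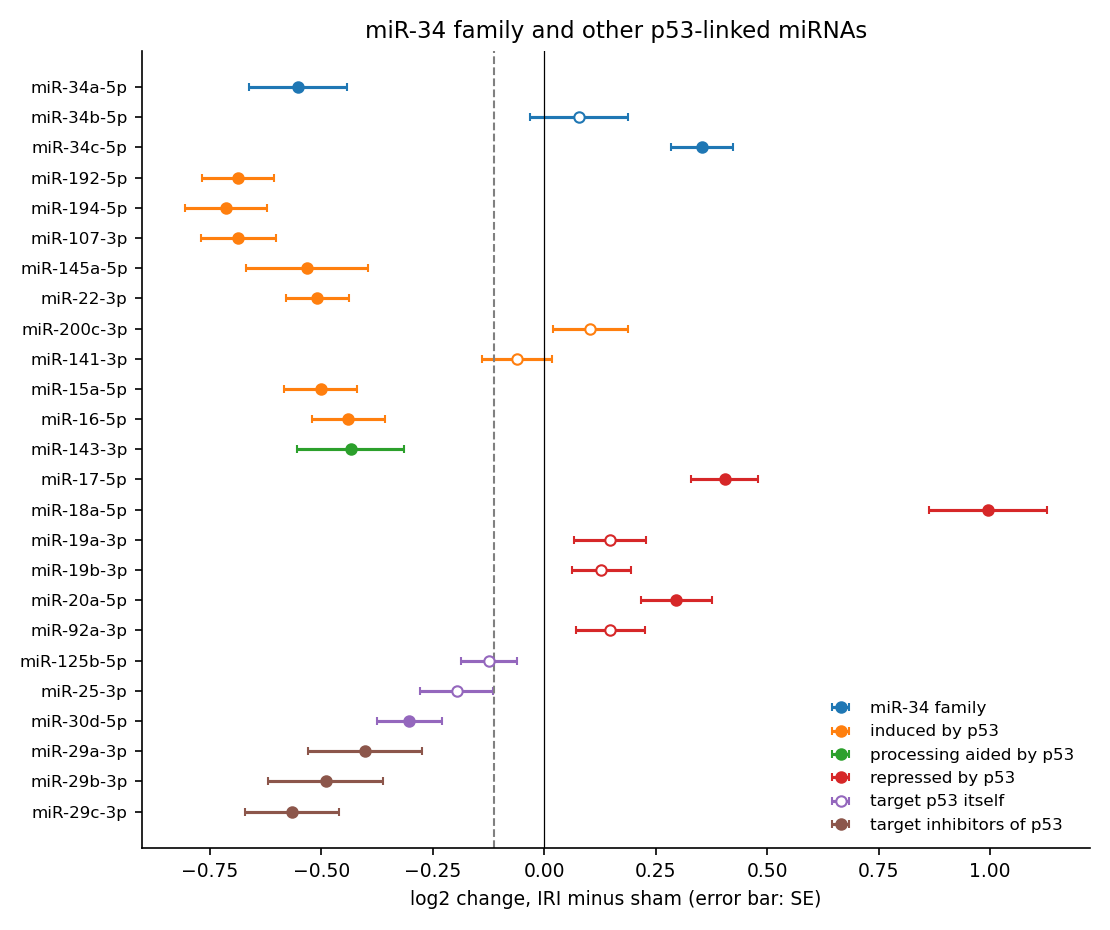
Log2 change, IRI minus sham (x axis, error bar SE), of the 3 tested miR-34 members and 22 other p53-linked miRNAs, coloured by their known relation to p53; filled points passed an adjusted p of 0.05 and open points did not. The dashed line is the median of all 379 tested miRNAs, -0.11; miR-34a-5p at -0.55 lies among the lower points and miR-34b-5p and miR-34c-5p to the right of 0.

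The other marker lists moved as follows beside these results. Leukocyte markers, 4 of 4 detected on every array, summed to between 458.7 and 620 on sham and between 664.6 and 979 on IRI arrays. Of these 4 only miR-223-3p was called (1.53, adjusted p = 0.000488, limma). miR-142a-3p and miR-142a-5p were at 0.29 and 0.19, and miR-150-5p was at -0.57, against the direction of the sum (adjusted p = 0.0566, limma). Endothelial markers, 2 of 2 detected on every array, summed to 4623 to 5333 and 3836 to 4321, and markers of fibroblasts and mural cells, 4 of 4, to 1705 to 1877 and 1039 to 1605, all in scaled signal. Both endothelial markers and 2 of the 4 fibroblast and mural markers were called lower. None of these 6 was without scaling or with the spike-ins (limma; 0 at an unadjusted p under 0.05), where miR-126a-3p stood at -0.02 and 0.00. Of the 3 red blood cell markers 1 was detected on every sham array and 3 on every IRI array. A single IRI array (1 of 8 arrays) detected the liver marker miR-122-5p. The part of these cell types, or of the blood content of the tissue, in the changes of miR-34a-5p and miR-34c-5p was not tested.

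**Figure D5:**
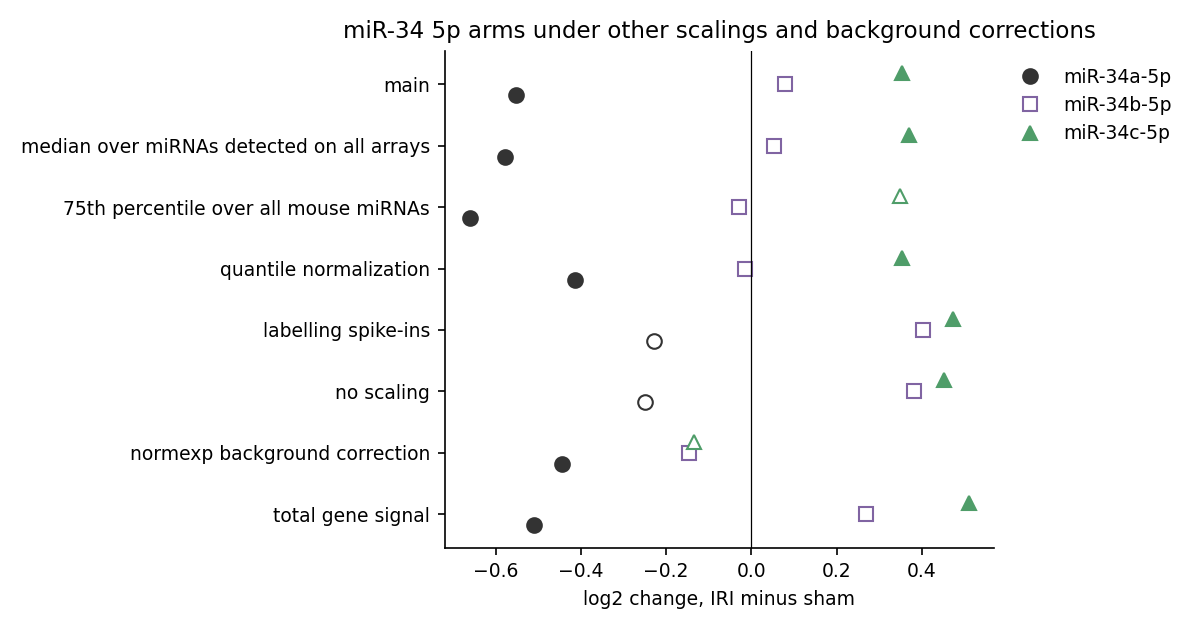
Log2 change, IRI minus sham (x axis), of miR-34a-5p (circles), miR-34b-5p (squares) and miR-34c-5p (triangles) under the main setting and 7 other choices of scaling, background correction or signal; filled symbols passed an adjusted p of 0.05. miR-34a-5p stays below 0 throughout, from -0.66 to -0.23, and miR-34b-5p and miR-34c-5p lie below 0 with normexp background correction.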

How the data were processed

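Total RNA from 30 mg of kidney was taken, and 100 ng was labelled with Cy3 for 1 array per sample, per the labels' protocols. The deposited scanner output is linear spot intensity from Agilent Feature Extraction 12.0.3.1, background-subtracted and not normalized between arrays, per the file headers. A second deposited table gives each miRNA as a linear ratio. Its making by the authors is not stated in the sources used, but it equalled the scanner files' total signals times 1 factor per array and 1 per entry, over 317 entries. It served only as an alternative.

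Outlier spots (1422 to 1560 of 56430 per array) were left out, and 0 were saturated. Spots were averaged per probe and probes summed per miRNA. Arrays were divided by the 75th percentile of 317 miRNAs with detection throughout, with dim values set to 17.3, a floor at the 5th percentile of detected miRNAs, before taking log2. A miRNA was called well above background where a share above 0.5 of its spots was so marked. Tests covered 379 miRNAs, those detected on every array of one group or of both, by limma 3.58.1 (R 4.3.3, lmFit, eBayes, two-sided, Benjamini-Hochberg over all 379), without covariates. Ratios and linear signals were compared with exact permutation tests over 70 assignments (SciPy 1.17.1). The precision is limited by 4 arrays per group.

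The limma step was tested on simulated data. It called, in the right direction, 12 of 20 changes of 1.5-fold, 17 of 20 of 2-fold and 20 of 20 of 4-fold. Of 319 simulated miRNAs without a change it called 3. The simulated noise was independent between miRNAs, with no scaling step, floor or shift of whole arrays. It therefore says nothing on how those affect the calls. Named miRNAs were the 6 members, miR-449a-5p, miR-449b and miR-449c-5p, the p53-linked and marker lists, and the 5 nearest in pattern to each member detected on all 8 arrays. The members and lists were chosen with earlier results of these data known. Alternatives covered scaling, background correction, signal, filter, floor, variance trend, blocks and each array left out. Normexp correction added an offset of 50 to every spot, so under it changes and ratios of dim miRNAs are damped and depend on the scaling. The ratio without a floor and each probe alone were chosen after seeing the data.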

Additional observations from a re-analysis of the deposited data

Results flagged for a closer look

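In 73 groups of 4 arrays, over the tested members and listed miRNAs, 1 array was set apart from the other 3 by Dixon's test in 6 groups, where chance flags about 1 in 20 groups. No member of the miR-34 family was among them. In scaled signal miR-22-3p was 4821 on sham replicate 2 against 5308 to 5371 on the others, and miR-126a-3p was 4476 there against 5101 to 5165. On IRI replicate 1 miR-16-5p was 2206 against 1812 to 1846 and miR-25-3p was 256.2 against 210.3 to 215.5. On IRI replicate 3 miR-29a-3p was 3508 against 4530 to 4614 and miR-29b-3p was 2569 against 3218 to 3314. Without these arrays in turn the count of p53-linked miRNAs called was 15, 17 and 14 in the order named.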

How the results depend on the processing

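The miR-34 members called were 2 in the main setting and stayed 2 without any 1 array. The count was 1 without scaling, with the percentile over all mouse miRNAs, with the spike-ins, with normexp background correction, with 2 times the floor, with either probe alone, and where detection on all 8 arrays was required, which leaves 2 members tested. The log2 change of miR-34a-5p ranged from -0.62 to -0.49 without any 1 array, and its call was lost without scaling (-0.25) and with the spike-ins (-0.23). miR-34b-5p ranged from 0.01 to 0.16 without any 1 array and turned to -0.030 with the percentile over all miRNAs, to -0.016 with quantile normalization and to -0.15 with normexp. miR-34c-5p ranged from 0.31 to 0.39 without any 1 array. It turned to -0.13 with normexp and lost its call with the percentile over all miRNAs (0.35), with 2 times the floor (0.00, all arrays at the floor), with the shorter probe alone (0.00) and with the longer probe alone (0.45). In the deposited ratios its fitted 4.83 rests on a fill value in sham. All tested miRNAs called numbered 185 (46 higher and 139 lower), against 54 (53 higher, 1 lower) unscaled, 74 (72 higher, 2 lower) after spike-in scaling and 111 with all mouse miRNAs tested, and 150 to 190 without any 1 array. p53-linked miRNAs called numbered 15 (3 higher and 12 lower), against 3 without scaling (3 higher), 6 with the spike-ins (6 higher), 9 with quantile normalization and 9 with all mouse miRNAs tested, and 13 to 17 without any 1 array.

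The ratio of miR-34b-5p to miR-34a-5p differed by 0.52 to 0.74 without any 1 array, that of miR-34c-5p to miR-34a-5p by 0.81 to 1.00 and that of miR-34c-5p to miR-34b-5p by 0.22 to 0.33. With 3 arrays against 4 the smallest possible p is 0.0571, so these say nothing on the calls. With normexp the first pair of differences was 0.30 and 0.31, neither called. Within slide columns they were 0.63 and 0.91 (exact sign-flip p = 0.125, the smallest possible). The last ratio was 0.52 and called with 0.5 times the floor or no floor, and -0.040 with 2 times the floor, where miR-34c-5p lies at the floor on all 8 arrays and its ratios say nothing of it. The cause of these shifts was not tested.

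Replicate numbers 1 to 3 occur in both groups, but same-numbered arrays did not deviate together (r = -0.085, -0.143 and 0.276), and 2 of 6 arrays correlated best with their own number. With the replicate block the arrays fall to 6, and 0 miR-34 members (2 at an unadjusted p under 0.05, limma), 6 p53-linked miRNAs and 67 miRNAs in all were called; miR-34a-5p was at -0.60, miR-34c-5p at 0.36, and the ratios to miR-34a-5p at 0.80 and 0.96 (exact sign-flip p = 0.25, the smallest possible). Depth is limited by background: miR-34c-5p and the 3p arms lay too near it for a fold.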
